A study of Saccharomyces cerevisiae with 24 samples.

Results

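The ATG genes of budding yeast (Saccharomyces cerevisiae) carry the core and selective machinery of autophagy. They were chosen by name, as every quantified gene whose standard symbol in the R64 annotation is ATG followed by a number. The rule uses no measured value, but it was set with earlier results of these data known. This gave 37 of the 5912 genes in the files, on 13 chromosomes, and all 37 passed the filter on low counts. Messenger RNA was sequenced in haploid BY4741 MATa cells grown in rich YPD medium, in 8 groups of 3 biological replicates. The treated groups received 0.1% methyl methanesulfonate (MMS), an agent that alkylates nucleic acids, for 1 h. They were gcn2Δ::KAN, gcn4Δ::KAN, mbf1Δ::NAT and wild type cells, and each had untreated cells of the same strain as its control. All strains share the BY4741 background, and whether a deletion strain is 1 clone or several is not given in the sources used here. The deleted genes belong to the integrated stress response of yeast. Active Gcn2 adds phosphate to eIF2, which slows translation in general and lets more of the activator Gcn4 be made. Mbf1 helps Gcn4 switch on its targets and also acts where ribosomes collide.

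In autophagy, a double membrane grows around cytoplasm, closes into an autophagosome and fuses with the vacuole, where its content is broken down. The Atg1 kinase complex starts the process, Atg9 vesicles and Atg2 bring membrane and lipid, and a phosphatidylinositol 3-kinase (PI3K) complex marks the membrane. Atg8 is then joined to lipid by conjugating enzymes that resemble those of ubiquitin. Receptors bind chosen cargo and tie it to Atg8, as in the cytoplasm-to-vacuole targeting (Cvt) pathway, which carries vacuolar enzymes in growing cells. In yeast, starvation for nitrogen or amino acids is the best known inducer, and Gcn4 has been described as an activator of some ATG genes under starvation.

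Upstream sequences of 3 members are given because these members recur in the results: ATG41 had the largest MMS response, ATG42 responded less in every mutant, and ATG8 responded more in gcn2Δ and mbf1Δ than in gcn4Δ. Each run is read 5′ to 3′ on the strand of the gene, from 250 to 51 bases before the start codon, in the RefSeq genome of build R64. Capitals mark the letters of 3 short motifs on either strand, TGACTC (bound by Gcn4), GGCGGC (bound by Ume6) and AGGGG (bound by Msn2 and Msn4).
ATG41 (chrXVI:74770-74969, minus strand): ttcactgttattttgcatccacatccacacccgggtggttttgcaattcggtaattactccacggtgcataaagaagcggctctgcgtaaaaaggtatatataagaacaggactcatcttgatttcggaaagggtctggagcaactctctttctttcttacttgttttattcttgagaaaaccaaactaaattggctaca
ATG42 (chrII:515414-515613, plus strand): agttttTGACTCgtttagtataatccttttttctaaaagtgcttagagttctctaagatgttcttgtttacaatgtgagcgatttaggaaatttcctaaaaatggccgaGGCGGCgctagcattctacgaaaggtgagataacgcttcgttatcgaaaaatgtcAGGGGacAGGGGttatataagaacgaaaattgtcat
ATG8 (chrII:80782-80981, minus strand): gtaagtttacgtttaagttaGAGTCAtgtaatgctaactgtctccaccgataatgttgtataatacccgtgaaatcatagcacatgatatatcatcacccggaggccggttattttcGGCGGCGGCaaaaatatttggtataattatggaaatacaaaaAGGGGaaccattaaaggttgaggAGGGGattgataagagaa
The ATG42 stretch held TGACTC at 244 bases, GGCGGC at 141 bases and AGGGG at 86 and 79 bases before the start codon. The ATG8 stretch held TGACTC on the opposite strand at 230 bases, 2 overlapping copies of GGCGGC at 133 and 130 bases, and AGGGG at 91 and 68 bases. The ATG41 stretch held none of these letters.

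Over the window from 250 bases before to 50 bases after the start codon, TGACTC was found for 7 of the 37 members (18.9%), against 479 of all 5908 windows (8.11%). The 7 members were ATG4, ATG8, ATG10, ATG13, ATG21, ATG29 and ATG42. GGCGGC was found for 3 members (8.11%), namely ATG8, ATG19 and ATG42, against 308 of all windows (5.21%). AGGGG was found for 8 members (21.6%), against 1293 of all windows (21.9%). These are matches of letters only, and no binding was measured.

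The libraries held 13518147 to 28366559 estimated counts each. Levels are given as FPKM, here fragments per kilobase of effective gene length and per unit of sequencing depth. Depth was scaled by the trimmed mean of M values (TMM), so that levels can be compared between libraries. Between genes they compare less well, because for 5623 genes the deposited length held 400 bases beyond the reference length. These flanks may take in reads of neighbouring genes. All levels are relative to the counted RNA of a culture, so a change in some cells and a smaller change in all cells cannot be told apart. The deleted genes were low in their own strains: GCN2 averaged 0.265 FPKM in MMS-treated and 0.142 in untreated gcn2Δ cells, against 17.0 and 17.2 in wild type. GCN4 averaged 25.6 and 28.3 FPKM in gcn4Δ cells against 575 and 982 in wild type, and MBF1 averaged 0.380 and 3.30 FPKM in mbf1Δ cells against 908 and 358 in wild type. The MATa genes MFA1 and STE2 were at 268 FPKM or more in every library, and MF(ALPHA)1 was at 0.717 FPKM or less. The deleted BY4741 markers URA3 and MET17 were listed at 0 and LEU2 was at 0.830 FPKM or less, while HIS3 ranged from 35.4 to 182 FPKM. Genes inside the ribosomal DNA (rDNA) locus took a share of the counts that moved with strain. Its median was 13.6% in MMS-treated and 7.62% in untreated gcn2Δ cells, 0.763% and 1.47% in gcn4Δ, 19.3% and 14.05% in mbf1Δ, and 17.1% and 17.4% in wild type. The share in gcn4Δ did not overlap that of any other strain, and strain and share cannot be told apart there. The share also split by treatment in gcn2Δ, at 7.46% to 8.19% untreated and 12.9% to 16.3% after MMS. It did so in gcn4Δ as well, where every treated library had the lower share. In wild type and mbf1Δ the treated and untreated ranges overlapped. MMS and share thus cannot be told apart within gcn2Δ or gcn4Δ. Covariate values there show only how far a result depends on the fit. Results were refitted without the rDNA-locus genes, and with the log2 share as a covariate, whose values are given for the members where the text names them.

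The question of the MMS comparison is how strongly the autophagy genes respond to alkylation in each strain. In wild type cells, MMS raised 31 of the 37 members, lowered 2 and left 4 without a call, by edgeR's quasi-likelihood test at an adjusted p under 0.05 over all 5824 genes tested. Over all genes, 42% were called higher and 41.2% lower. The median response of the members was a log2 fold change of 1.47, against 0.02 for all genes. A rise of at least 2-fold was called for 27 members, against 19.8% of all genes. The members' median level was 31.8 FPKM after MMS, against 10.0 FPKM untreated, while the median of all genes was 30.1 and 30.6 FPKM. The median member thus stood at percentile 51.5 of all genes after MMS, against 17.4 untreated. Together the 37 members took 0.336% to 0.343% of the counts of MMS-treated wild type libraries, against 0.0610% to 0.0696% of untreated ones.

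In gcn2Δ cells 32 members rose and 2 fell, against 41.4% and 40.4% of all genes, with a median log2 fold change of 1.22 for the members and 0.03 for all genes. In gcn4Δ cells 30 rose and 3 fell, against 40.7% and 42.6% of all genes, with medians of 1.25 and -0.02. In mbf1Δ cells 34 rose and 2 fell, against 42.7% and 40.1% of all genes, with medians of 1.41 and 0.05. Under the rDNA-locus covariate the gcn4Δ rises of ATG17 (0.04) and ATG26 (0.06) were no longer called. A rise of at least 2-fold was called for 23, 24 and 24 members in gcn2Δ, gcn4Δ and mbf1Δ cells, against 16.8%, 17.6% and 18% of all genes. The direction of small changes depends on scaling: on the deposited TPM scale the median of all genes itself moved by 0.55 in wild type, 0.56 in gcn2Δ, 0.54 in gcn4Δ and 0.67 in mbf1Δ cells.

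**Figure D1:**
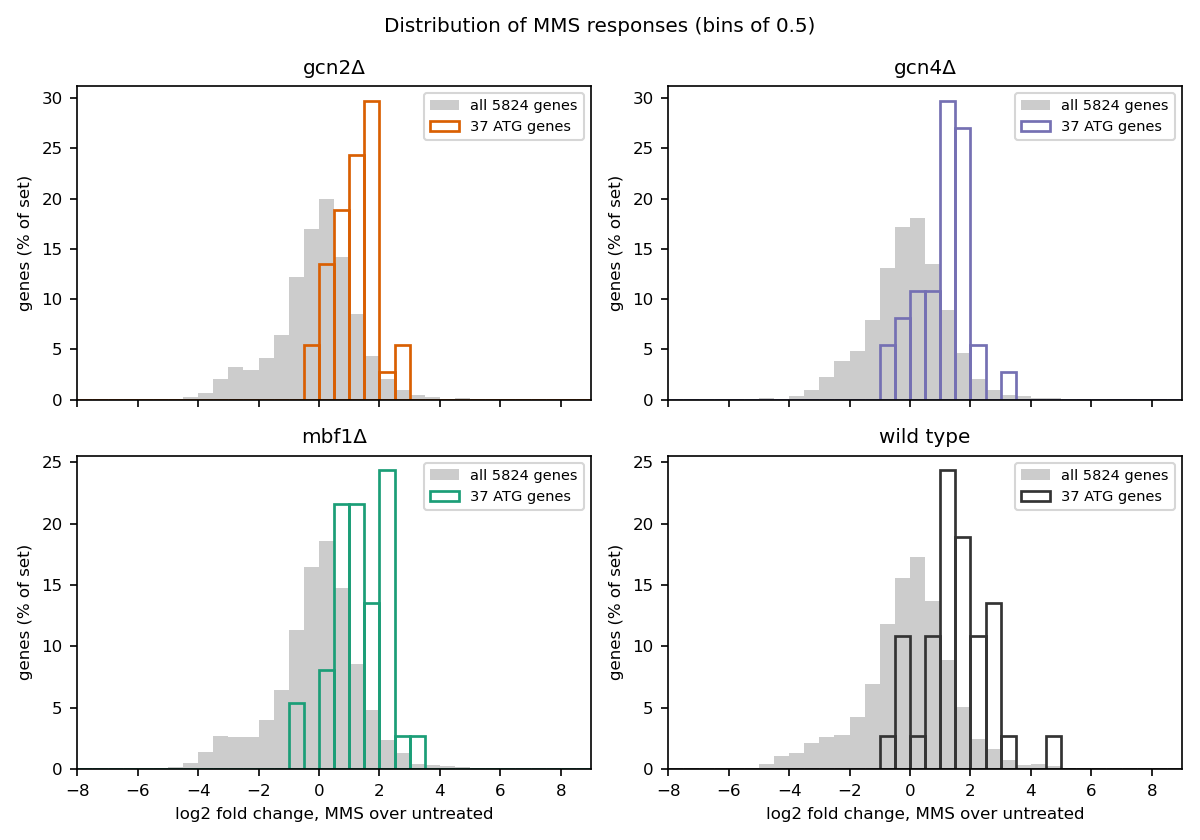
Histograms of the log2 fold change of MMS-treated over untreated cells in each strain, as the percentage of genes per bin of 0.5, for all 5824 tested genes (grey) and the 37 ATG genes (outline). The ATG genes sit to the right of the bulk in all 4 strains, with medians of 1.22 in gcn2Δ, 1.25 in gcn4Δ, 1.41 in mbf1Δ and 1.47 in wild type cells.

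The Atg1 complex and its scaffolds have 6 members, and all 6 rose in wild type cells, against 42% of all genes and 83.8% of the 37 members. ATG1, the kinase itself (chromosome VII, 160065 to 162758), had 18.6, 21.0 and 19.0 FPKM in the 3 MMS-treated wild type libraries, against 5.06, 6.10 and 6.58 in the untreated ones. The groups did not overlap, and the log2 fold change was 1.71 ± 0.11 (SE, adjusted p = 1.1e-12). In the mutants ATG1 rose by 1.64 in gcn2Δ, 1.44 in gcn4Δ and 1.77 in mbf1Δ cells. ATG13, the regulatory subunit that is dephosphorylated on starvation, had 52.2, 55.4 and 53.7 FPKM after MMS, against 13.9, 15.2 and 16.0 untreated in wild type. Its log2 fold change was 1.84 ± 0.08 in wild type, and 1.24 in gcn2Δ, 0.97 in gcn4Δ and 1.47 in mbf1Δ cells. ATG29, part of the scaffold with Atg17 and Atg31, changed most in this group, by 2.74 ± 0.16 in wild type and 2.06 ± 0.14 in gcn4Δ cells. Its reading frame overlaps SET6 over 3.74% of its length, and strand was not given in the sources used here. ATG17 and ATG31 rose by 0.86 and 0.56 in wild type, and the call of ATG31 ended without untreated wild type replicate 1 (0.43, adjusted p = 0.0824). ATG11, the scaffold for selective cargo, rose by 1.14.

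Among the 7 genes for Atg9 traffic and lipid transfer, 5 rose in wild type, against 42% of all genes. ATG27 fell and ATG23 (0.25) was not called. ATG41 (also ICY2, chromosome XVI, 74309 to 74719), whose protein binds Atg9, had the largest response of all members in every strain. It had 843, 740.0 and 874 FPKM in MMS-treated wild type libraries, against 30.0, 32.1 and 21.98 in untreated ones. The log2 fold change was 4.88 ± 0.15 (adjusted p = 1.8e-18), which is 29.5-fold and rank 19 of 5824 genes. In gcn2Δ cells it had 120.1, 140.2 and 151 FPKM after MMS, against 14.9, 20.3 and 17.2 untreated. In gcn4Δ cells it had 187, 183 and 168 FPKM, against 19.6, 16.4 and 18.8. In mbf1Δ cells it had 175, 209.9 and 251 FPKM, against 27.4, 21.1 and 25.6. Every treated library thus stood above every untreated one, and every treated mutant library lay below every treated wild type library.

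ATG9, the membrane protein of the vesicles, had 19.2, 19.1 and 18.6 FPKM in MMS-treated wild type libraries, against 6.31, 6.69 and 7.41 in untreated ones. Its log2 fold change was 1.47 ± 0.07 in wild type, 1.69 in gcn2Δ, 1.104 in gcn4Δ and 1.87 in mbf1Δ cells. ATG2, the lipid transfer protein, and its partner ATG18, which binds phosphoinositide, rose by 1.37 and 1.08, and ATG21, a second phosphoinositide binder, by 1.88. ATG27, a membrane protein of Atg9 vesicles, was the most abundant member in untreated wild type cells. It had 98.5, 99.5 and 100.4 FPKM after MMS, against 130.7, 131.0 and 120.6 untreated. Its log2 fold change was -0.36 ± 0.06 in wild type, -0.42 in gcn2Δ, -0.30 in gcn4Δ and -0.51 in mbf1Δ cells, and it turned positive in all 4 strains on the TPM scale (0.26, 0.19, 0.31 and 0.18).

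Of the 2 subunits particular to PI3K complex I, ATG14, which directs the complex to autophagy, rose in all 4 strains by 1.37 to 1.46. ATG38, which links the complex, was at -0.02 in wild type and was called higher in mbf1Δ cells (0.49) and in no other strain. That call ended without untreated mbf1Δ replicate 3 (0.36) and without MMS-treated mbf1Δ replicate 1 (0.24). Under the covariate ATG38 was called lower in gcn4Δ (-0.70).

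Of the 8 conjugation genes, 6 rose in wild type, against 42% of all genes. ATG8, the ubiquitin-like protein that is joined to lipid (chromosome II, 80378 to 80731), had 69.7, 74.6 and 72.0 FPKM in MMS-treated wild type libraries, against 12.4, 12.9 and 12.7 in untreated ones. The log2 fold change was 2.51 ± 0.21 (adjusted p = 1.5e-10). In gcn2Δ cells it had 132, 114 and 80.6 FPKM after MMS, against 19.3, 12.9 and 13.9 untreated (log2 2.82 ± 0.19). In mbf1Δ cells it had 132, 95.1 and 82.9 FPKM, against 17.1, 10.9 and 11.4 (2.98 ± 0.20). In gcn4Δ cells it had 62.2, 69.3 and 67.0 FPKM, against 16.7, 16.7 and 17.6 (1.96 ± 0.18). Libraries of gcn2Δ and mbf1Δ varied more than those of gcn4Δ and wild type. In MMS-treated mbf1Δ cells the rDNA-locus share was 9.67% in replicate 1, the library with most ATG8, and 19.3% and 19.6% in the other two. In MMS-treated gcn2Δ cells the share was 12.9%, 13.6% and 16.3% in replicates 1 to 3.

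The enzymes ATG7 (the E1-like activator), ATG3 (the E2-like enzyme for Atg8) and ATG4 (the protease that processes Atg8) rose by 2.31, 2.19 and 1.59 in wild type. ATG16, which joins the Atg12 and Atg5 conjugate, rose by 1.68, with 9.90 ± 0.701 FPKM after MMS, against 3.10 ± 0.710 untreated (SD, n = 3). ATG5, the protein that receives Atg12, rose least of these 6, by 0.51 in wild type. ATG10, the E2-like enzyme for Atg12, was not called in any strain (-0.27 in wild type), but under the covariate it was called higher in gcn2Δ (0.46) and lower in gcn4Δ (-0.81). ATG12, the second ubiquitin-like protein, was at -0.02 in wild type, rose by 0.54 in mbf1Δ and fell by 0.55 in gcn4Δ cells. Neither ATG12 call was stable: the fall in gcn4Δ ended without MMS-treated gcn4Δ replicate 2 (-0.43) and turned to 0.02 on the TPM scale. The rise in mbf1Δ ended without untreated replicate 3 or MMS-treated replicate 1 (0.29 each). Under the covariate ATG12 was also called higher in gcn2Δ (0.56).

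The list of receptors and adaptors of selective autophagy has 8 members and leaves out ATG45, which is described with the other members. All 8 rose in all 4 strains, with a median log2 fold change of 1.37 in gcn2Δ, 1.504 in gcn4Δ, 1.79 in mbf1Δ and 2.40 in wild type cells. Of all genes, 41.4%, 40.7%, 42.7% and 42% rose in these strains, in the same order. Of the 37 members, 86.5%, 81.1%, 91.9% and 83.8% did, so a rise was not particular to the receptors. ATG34, a receptor for alpha-mannosidase (chromosome XV, 165714 to 166952), had 27.4, 32.6 and 31.0 FPKM after MMS, against 2.97, 3.63 and 4.20 untreated in wild type. Its log2 fold change was 3.05 ± 0.17 (adjusted p = 1.2e-13). ATG33, a mitochondrial protein used in mitophagy (chromosome XII, 840321 to 840914), had 309, 297 and 317 FPKM after MMS, against 39.5, 46.9 and 33.5 untreated in wild type. Its log2 fold change was 2.95 ± 0.13 (adjusted p = 2.2e-15). ATG19, the receptor of the Cvt pathway, rose by 2.56, and ATG39 and ATG40, the receptors for nuclear membrane and endoplasmic reticulum, by 2.46 and 2.34. ATG36, the peroxisome receptor, ATG20, a sorting nexin, and ATG32, the mitophagy receptor, rose by 1.67, 1.47 and 1.08. ATG33 and ATG32 serve the same cargo, and their levels after MMS in wild type were 308 ± 9.94 and 30.2 ± 0.512 FPKM (SD, n = 3).

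The 3 genes of vacuolar breakdown and efflux rose in all 4 strains, against 40.7% to 42.7% of all genes. ATG42, a vacuolar carboxypeptidase, had 407, 391 and 387 FPKM after MMS, against 60.9, 72.4 and 53.4 untreated in wild type (log2 2.67 ± 0.11). ATG15, the lipase that opens autophagic bodies, rose by 1.87, and ATG22, which takes part in amino acid efflux, by 1.23. Among the other members, ATG26, a sterol glucosyltransferase, rose by 1.00 and ATG45, a receptor for glycogen, by 0.99. ATG44, a factor for mitochondrial fission in mitophagy, had 36.1, 39.6 and 36.7 FPKM after MMS, against 72.9, 72.3 and 57.7 untreated in wild type. Its log2 fold change was -0.84 ± 0.12 in wild type, -0.39 in gcn2Δ, -0.80 in gcn4Δ and -0.51 in mbf1Δ cells, and it turned positive in gcn2Δ (0.18) and mbf1Δ (0.14) on the TPM scale. ATG44 is short and lies within 200 bases of COA1 and UBP7, so reads of its neighbours may be counted in it, and 13 members have such a neighbour.

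**Figure D2:**
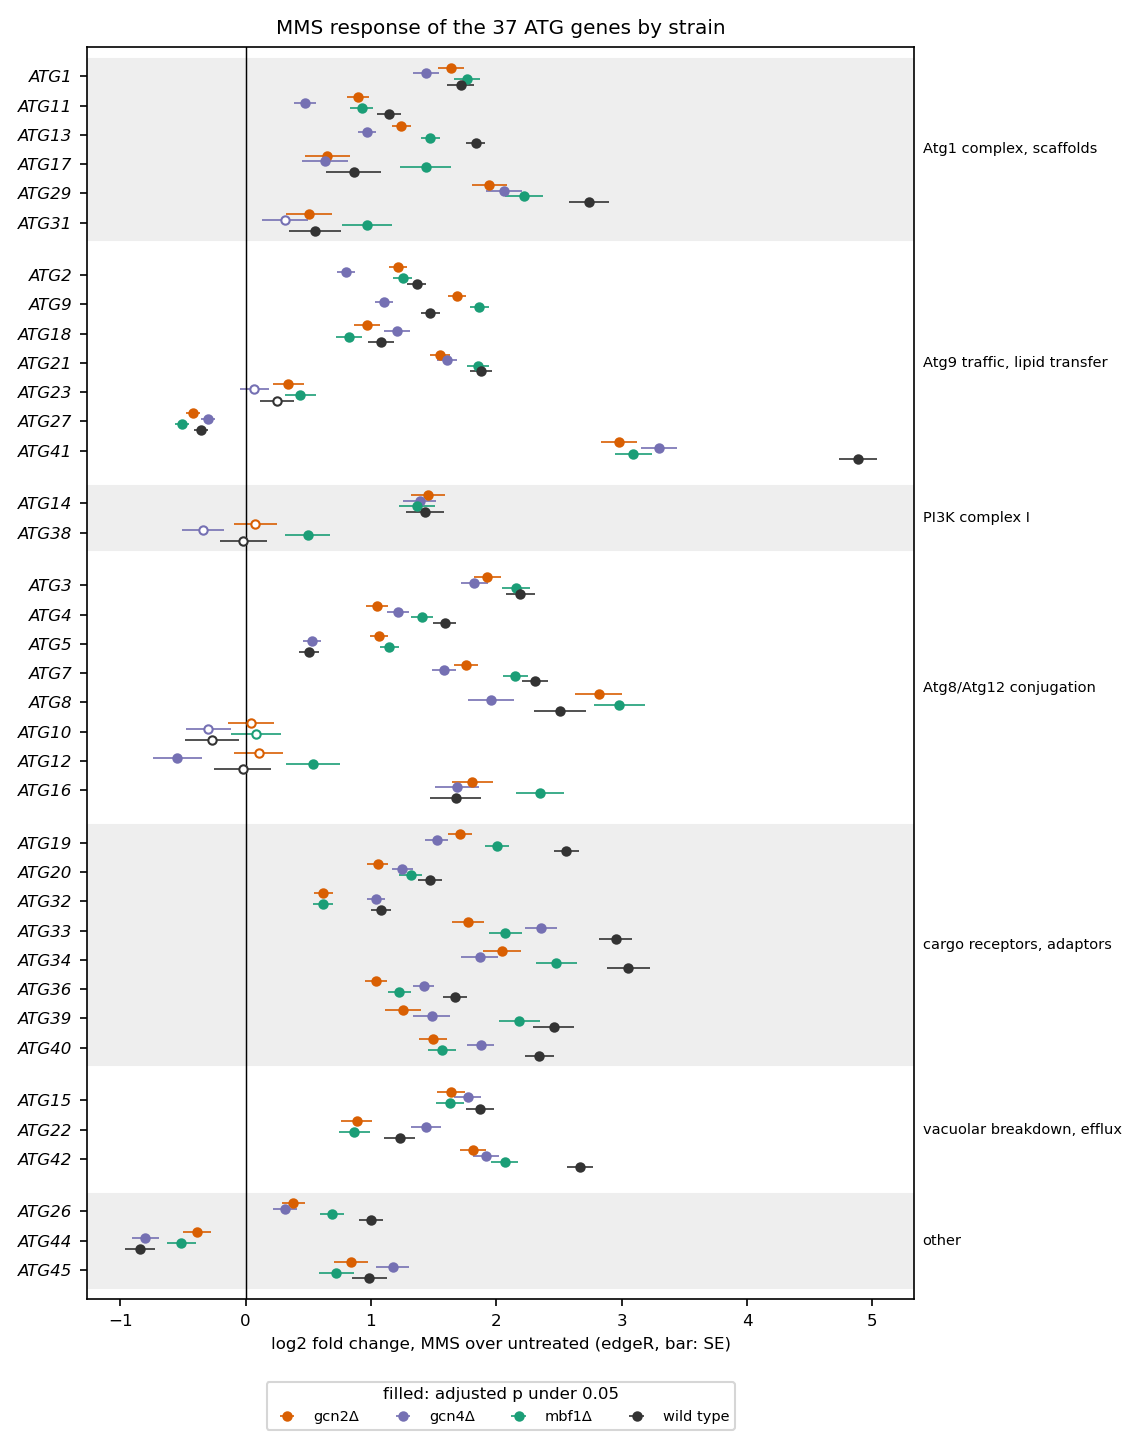
Log2 fold change of MMS-treated over untreated cells for each of the 37 ATG genes in gcn2Δ, gcn4Δ, mbf1Δ and wild type cells, grouped by role; bars are SE and filled points have an adjusted p under 0.05. ATG41 is farthest to the right in all strains, and the wild type points of the receptors and adaptors lie to the right of most mutant points.

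The design's main question is whether the MMS response differs between a mutant and wild type, tested as the interaction of genotype and treatment. The 3 interactions share the 6 wild type libraries, so their values are given side by side and their likeness is no independent evidence. In gcn2Δ cells 16 members responded less and 2 more than in wild type, against 17.3% and 18.6% of all genes. In gcn4Δ cells 15 responded less and none more, against 16.4% and 18.8% of all genes. In mbf1Δ cells 8 responded less and 2 more, against 12.4% and 11.6% of all genes. These counts depend on the fit. On the TPM scale 10, 7 and 4 members responded less in gcn2Δ, gcn4Δ and mbf1Δ cells. Under the rDNA-locus covariate 17, 22 and 10 did, with 4, 3 and 3 responding more. The shares of all genes called under these refits are not given here. Whether the shifts in the counts are particular to the members was not tested. The median interaction of the members was -0.25, -0.32 and -0.15 in gcn2Δ, gcn4Δ and mbf1Δ cells, against 0.03, -0.01 and 0.02 for all genes. A response at least 2-fold smaller was called for 4, 3 and 1 members, against 3.8%, 2.61% and 2.16% of all genes.

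ATG41 had the largest loss of response in all 3 mutants. Its response was smaller by 1.90 ± 0.20 on the log2 scale in gcn2Δ cells (adjusted p = 1.8e-07). In gcn4Δ cells it was smaller by 1.58 ± 0.20 (adjusted p = 1.6e-06), and mbf1Δ cells showed a difference of -1.79 ± 0.20 (adjusted p = 8.1e-07). In fold terms it rose 7.89-fold, 9.84-fold and 8.54-fold in gcn2Δ, gcn4Δ and mbf1Δ cells, against 29.5-fold in wild type. With the rDNA-locus share as a covariate the differences were -2.08, -1.32 and -1.85, all called.

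All 8 listed receptors and adaptors responded less in gcn2Δ, against 17.3% of all genes, with a median interaction of -0.85. ATG45, the glycogen receptor outside this list, was not called in any mutant (-0.15 ± 0.20 in gcn2Δ, 0.19 ± 0.20 in gcn4Δ and -0.26 ± 0.20 in mbf1Δ). Of the 8 on the list, 5 responded less in gcn4Δ (median -0.53) and 5 in mbf1Δ (median -0.51), against 16.4% and 12.4% of all genes. In gcn2Δ cells the largest differences were those of ATG39 (-1.20 ± 0.22, adjusted p = 0.00020) and ATG33 (-1.18 ± 0.18, adjusted p = 2.3e-05). ATG39 had 6.26, 5.48 and 5.44 FPKM in MMS-treated gcn2Δ libraries, against 8.64, 10.8 and 9.96 in wild type, so these groups did not overlap. Untreated, it had 2.49, 2.32 and 2.38 FPKM in gcn2Δ, against 2.15, 2.05 and 1.29 in wild type. The untreated groups thus also stood apart, in the opposite direction, and the wild type ones held only 27, 29 and 24 counts. ATG33 had 112, 107 and 140.1 FPKM in MMS-treated gcn2Δ libraries, 139, 184 and 207 in mbf1Δ and 219, 242 and 229 in gcn4Δ, all below the 297 to 317 of wild type. Its response was smaller by 0.59 in gcn4Δ and by 0.88 in mbf1Δ cells.

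In gcn4Δ cells ATG34 (-1.18 ± 0.23, adjusted p = 0.00039) and ATG19 (-1.04 ± 0.14, adjusted p = 2.5e-06) had the largest differences among the receptors. Both encode receptors for vacuolar enzymes and lie close together on chromosome XV. ATG19 had 53.1, 54.9 and 51.5 FPKM in MMS-treated gcn4Δ libraries, against 76.9, 81.2 and 76.1 in wild type. Both genes were also called higher in untreated gcn4Δ than in untreated wild type cells, with the limits given for that comparison. In mbf1Δ cells ATG40 responded less by 0.78 ± 0.16 (adjusted p = 0.0012), and the other called receptors were ATG19, ATG32, ATG33 and ATG36. ATG32 responded less in gcn2Δ and mbf1Δ (-0.46 each) and was at -0.04 ± 0.11 in gcn4Δ cells.

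Not all of these calls were stable. In gcn2Δ the call of ATG20 (-0.42) ended without MMS-treated gcn2Δ replicate 2 (-0.33, adjusted p = 0.0558) and on the TPM scale, which left 7 of 8 receptors. In gcn4Δ the call of ATG40 (-0.47) ended without any of 5 libraries and, with that of ATG33 (-0.13 there), under the rDNA-locus covariate, which added a call of ATG20 (-0.38) and so left 4 of 8. In mbf1Δ the call of ATG36 (-0.44) ended without untreated wild type replicate 3 (-0.35) or MMS-treated mbf1Δ replicate 1 (-0.36), and the TPM scale left 2 of 8.

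In the Atg1 complex, ATG13 responded less in all 3 mutants, by 0.59 ± 0.11 in gcn2Δ, 0.87 ± 0.11 in gcn4Δ and 0.36 ± 0.11 in mbf1Δ cells. After MMS it had 41.9, 40.5 and 40.3 FPKM in gcn2Δ libraries. The gcn4Δ libraries had 28.8, 28.8 and 30.9 FPKM and the mbf1Δ libraries 46.8, 40.6 and 40.8, against 52.2 to 55.4 in wild type. The mbf1Δ call ended without untreated wild type replicate 1 (-0.31) and without untreated mbf1Δ replicate 2 (-0.28), and the calls in gcn2Δ and mbf1Δ ended on the TPM scale. ATG29 responded less in gcn2Δ (-0.80) and gcn4Δ (-0.68), and the gcn4Δ call ended without untreated wild type replicate 3 (-0.49), untreated gcn4Δ replicate 1 (-0.61) or MMS-treated gcn4Δ replicate 2 (-0.58). ATG11 responded less in gcn4Δ cells (-0.67). The interaction of ATG1 itself was -0.08 ± 0.15 in gcn2Δ, -0.28 ± 0.15 in gcn4Δ and 0.05 ± 0.15 in mbf1Δ, none called. Under the covariate it was -0.47 in gcn4Δ and called (adjusted p = 0.0224).

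ATG9 moved in opposite directions by strain. Its response was smaller by 0.37 ± 0.10 in gcn4Δ cells (adjusted p = 0.0072), larger by 0.39 ± 0.11 in mbf1Δ cells (adjusted p = 0.0092) and at 0.21 ± 0.10 in gcn2Δ cells, not called. After MMS it had 15.8, 15.3 and 15.5 FPKM in gcn4Δ and 25.3, 21.6 and 22.9 in mbf1Δ libraries, against 18.6 to 19.2 in wild type. Both calls ended on the TPM scale, and the gcn2Δ value became a call under the covariate (0.34) and without MMS-treated mbf1Δ replicate 1 (0.24). ATG2 responded less in gcn4Δ (-0.56), and ATG21 in gcn2Δ (-0.33), a call that ended under the covariate, on the TPM scale and without any of 11 libraries.

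In the conjugation group, ATG5 responded more in gcn2Δ by 0.56 ± 0.10 (adjusted p = 0.00021) and in mbf1Δ by 0.64 ± 0.11 (adjusted p = 0.00012), and was at 0.03 ± 0.10 in gcn4Δ cells. After MMS it had 61.5, 61.4 and 60.9 FPKM in gcn2Δ and 58.8, 62.2 and 61.9 in mbf1Δ libraries, against 35.3, 41.1 and 36.6 in wild type. PPT2 lies within 200 bases of ATG5, and reads from it may be counted in ATG5. ATG7 responded less in gcn2Δ (-0.55) and gcn4Δ (-0.72). ATG4 did so in gcn2Δ (-0.54) and gcn4Δ (-0.37), where the gcn4Δ call ended without any of 7 libraries. The interaction of ATG8 was 0.31 ± 0.29 in gcn2Δ, -0.55 ± 0.28 in gcn4Δ and 0.48 ± 0.30 in mbf1Δ cells, none called. Under the covariate both the gcn2Δ value (0.63, adjusted p = 0.0450) and the gcn4Δ value (-1.12, adjusted p = 0.00164) were called. The covariate was added because libraries with a low share held more ATG8, so these ATG8 calls are no independent evidence. In gcn4Δ the share also overlapped that of no other strain, and in gcn2Δ and gcn4Δ it split by treatment. On the TPM scale the calls of ATG4, ATG7, ATG26 and ATG29 ended in gcn2Δ and gcn4Δ, and those of ATG2 and ATG11 ended in gcn4Δ.

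ATG42 responded less in all 3 mutants, by 0.85, 0.75 and 0.60 in gcn2Δ, gcn4Δ and mbf1Δ cells. After MMS it had 204, 204 and 240.0 FPKM in gcn2Δ libraries. The gcn4Δ libraries had 276, 279 and 264 FPKM and the mbf1Δ libraries 229.5, 298 and 319, all below the 387 to 407 of wild type. ATG26 responded less in gcn2Δ (-0.62) and gcn4Δ (-0.69). ATG44 fell less in gcn2Δ than in wild type, by 0.46 ± 0.16 (adjusted p = 0.0313). That call ended without any of 6 libraries (0.40 to 0.44) and under the covariate (0.21). Neither ATG14 nor ATG38 was called in any of these 3 comparisons.

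**Figure D3:**
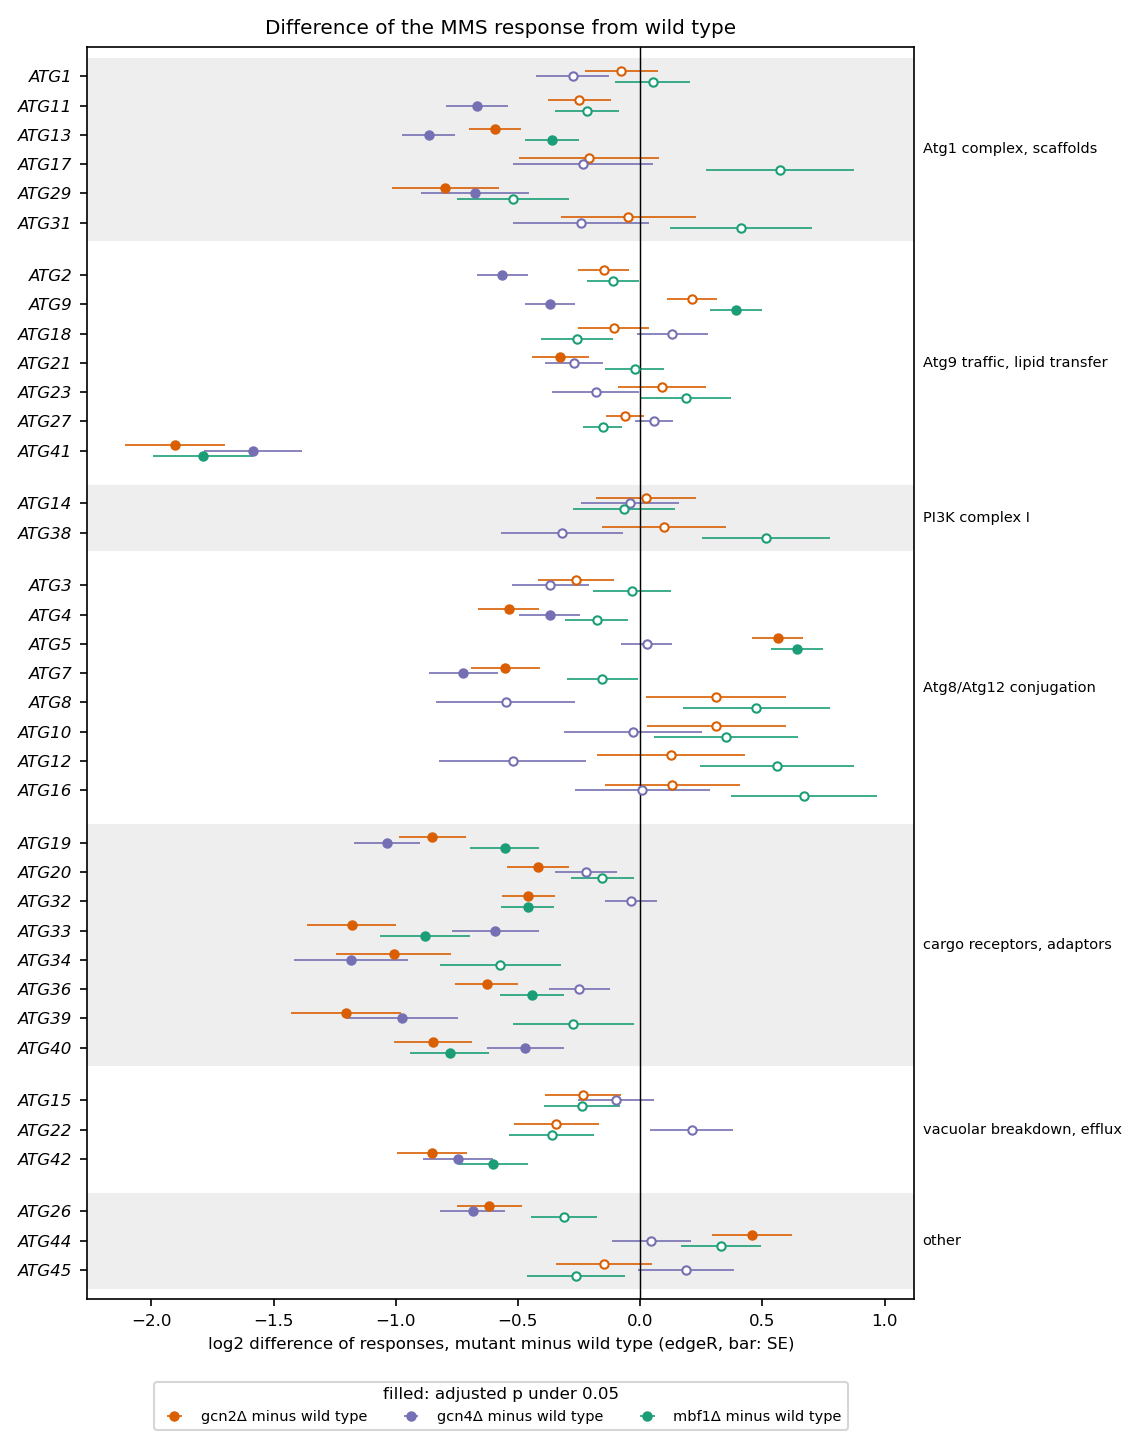
Difference of the log2 MMS response between a mutant and wild type for the 37 ATG genes, grouped by role; bars are SE, filled points have an adjusted p under 0.05, and 0 is the wild type response. ATG41 lies between -1.90 and -1.58, the receptors and adaptors lie to the left of 0, and ATG5 lies to the right in gcn2Δ and mbf1Δ.

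**Figure D4:**
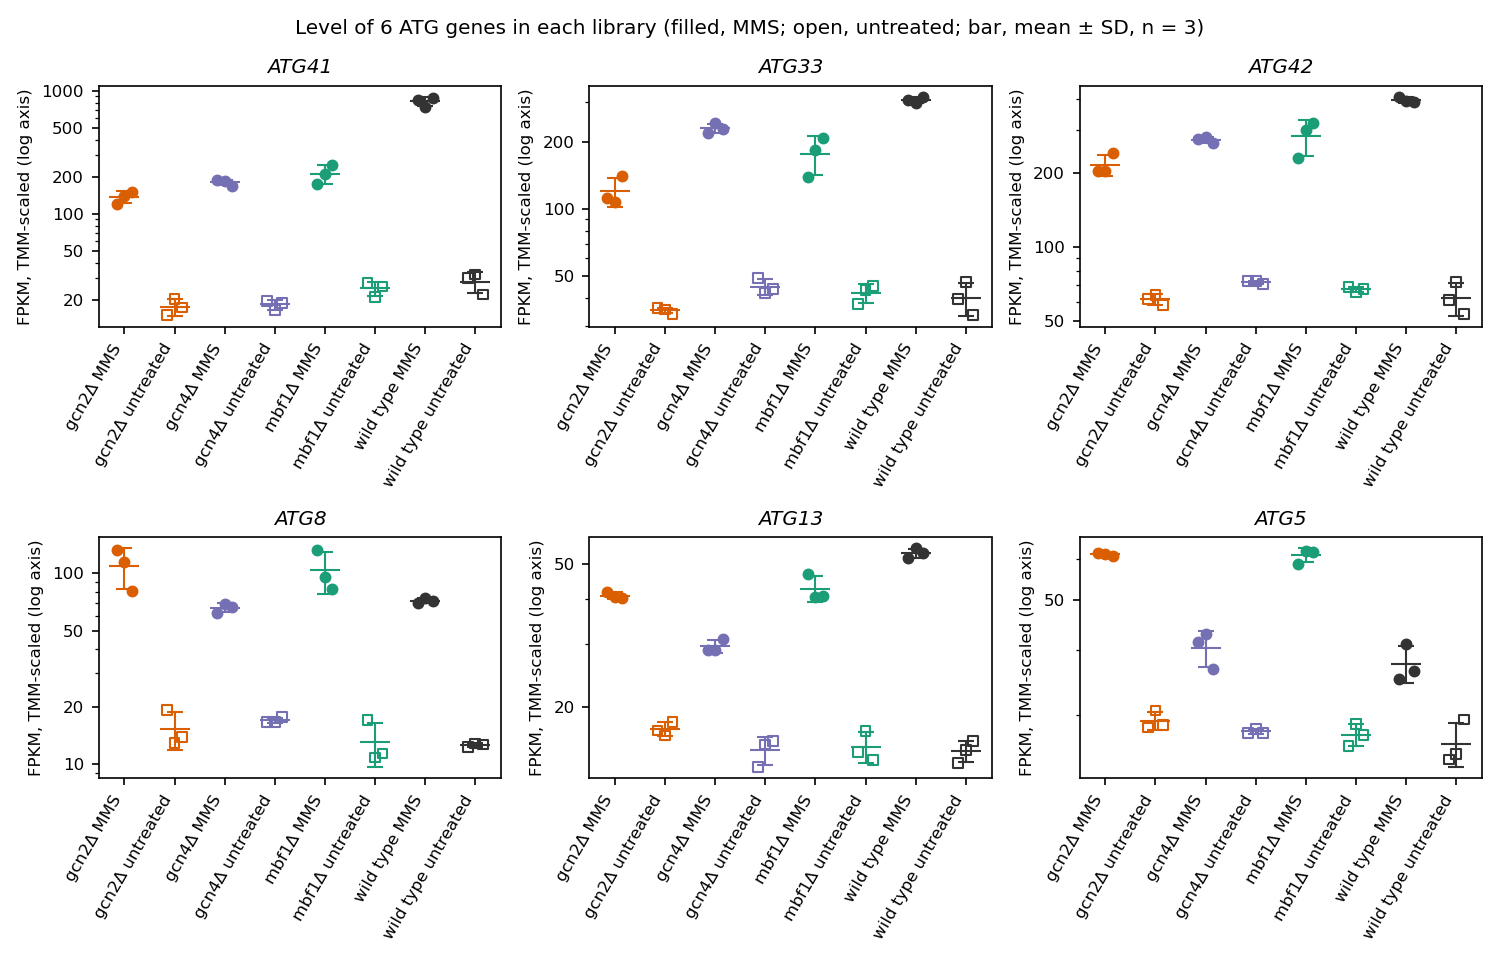
Level in FPKM (log axis) of ATG41, ATG33, ATG42, ATG8, ATG13 and ATG5 in each of the 24 libraries; filled circles are MMS-treated, open squares untreated, and bars give mean and SD (n = 3). Treated wild type libraries are highest for ATG41, ATG33, ATG42 and ATG13, and lie below treated gcn2Δ and mbf1Δ libraries for ATG8 and ATG5.

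Responses were also compared between mutants. The mbf1Δ and gcn2Δ responses differed for 1 member, ATG39, against 2.7% of all genes higher and 4.04% lower. ATG39 responded more in mbf1Δ by 0.93 ± 0.23 (adjusted p = 0.0146), with 6.37, 6.68 and 7.76 FPKM after MMS in mbf1Δ, against 6.26, 5.48 and 5.44 in gcn2Δ. Untreated, it had 1.82, 1.301 and 1.42 FPKM in mbf1Δ, against 2.49, 2.32 and 2.38 in gcn2Δ, so both the treated and the untreated groups stood apart, in opposite directions. The call ended without untreated mbf1Δ replicate 2 (0.84) or 3 (0.88) and on the TPM scale, and DESeq2 called no member. The median difference of the 37 members was 0.19, against 0.01 for all genes, and 9 members had an unadjusted p under 0.05. The share of all genes under that unadjusted p is not given here, so the 9 are no result about the members.

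The mbf1Δ response exceeded the gcn4Δ response for 14 members and fell short of it for 4, against 21% and 22.8% of all genes. The highest were ATG12 (1.08 ± 0.29, adjusted p = 0.0052) and ATG8 (1.03 ± 0.28, adjusted p = 0.0054), and the lowest were ATG22 (-0.57 ± 0.17, adjusted p = 0.0105) and ATG32 (-0.42 ± 0.11, adjusted p = 0.0033). ATG12 had 15.0, 10.8 and 8.86 FPKM in MMS-treated mbf1Δ libraries, against 8.65, 7.01 and 8.31 in gcn4Δ. Untreated, it had 9.78, 9.39 and 5.22 FPKM in mbf1Δ, against 10.3, 12.2 and 12.6 in gcn4Δ. The difference of responses thus rests on the untreated cells as well. ATG22 had 47.2, 59.0 and 67.4 FPKM in mbf1Δ, against 92.7, 82.4 and 81.0 in gcn4Δ, so these groups did not overlap. ATG5 and ATG9 were higher by 0.61 and 0.76. Without MMS-treated mbf1Δ replicate 1, 12 members were called, against 18 with it, and the TPM scale gave 6, without ATG32 (-0.34).

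The gcn2Δ response exceeded the gcn4Δ response for 6 members and fell short of it for 4, against 14.5% and 18.3% of all genes. ATG8 was higher by 0.86 ± 0.26 (adjusted p = 0.0163), a call that ended without MMS-treated gcn2Δ replicate 1 (0.68) and on the TPM scale. ATG9 was higher by 0.58 ± 0.10 (adjusted p = 0.00015), a call that also ended on the TPM scale (0.50). ATG33 was lower by 0.59 ± 0.18 (adjusted p = 0.0152) and ATG22 by 0.55 ± 0.17 (adjusted p = 0.0169). In both comparisons with gcn4Δ the strains do not overlap in rDNA-locus share, and the covariate raised the number of calls to 29 and 25. The shares of all genes called under the covariate are not given here, so this rise is no result about the members.

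Untreated mutants were also compared with untreated wild type cells. For gcn2Δ against wild type no member was called by edgeR, against 0.429% of all genes, while 16 had an unadjusted p under 0.05 and DESeq2 called 1. That gene was ATG41 at -0.68 (edgeR adjusted p = 0.0548), with 14.9, 20.3 and 17.2 FPKM in gcn2Δ, against 30.0, 32.1 and 21.98 in wild type. For mbf1Δ none was called by edgeR or DESeq2, against 0.155% of all genes, and 3 had an unadjusted p under 0.05. The share of all genes under that unadjusted p is not given here. The 16 and the 3 are therefore no result about the members. For gcn4Δ 3 members were higher and 1 lower, against 9.19% and 10.1% of all genes.

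ATG34 had 5.23, 6.61 and 5.70 FPKM in untreated gcn4Δ cells, against 2.97, 3.63 and 4.20 in wild type (log2 0.68 ± 0.19, adjusted p = 0.0174). ATG19 had 17.6, 18.5 and 19.3 FPKM, against 12.0, 14.5 and 13.1 (0.48 ± 0.10, adjusted p = 0.0029), and ATG40 was higher by 0.46. ATG41 had 19.6, 16.4 and 18.8 FPKM, against 30.0, 32.1 and 21.98 (-0.61 ± 0.16, adjusted p = 0.0121). The calls of ATG34 and ATG41 ended without untreated wild type replicate 1 or 2 or untreated gcn4Δ replicate 2, and that of ATG40 without untreated wild type replicate 2 or untreated gcn4Δ replicate 3. Under the rDNA-locus covariate ATG34 was at -0.22, ATG19 at 0.06 and ATG41 at 0.19, none called, while the number of called members was 10, with 6 higher and 4 lower. The receptors called higher there were ATG33 (1.58), ATG36 (0.82) and ATG40 (1.42). On the TPM scale the median of all genes was higher by 0.33 in gcn2Δ and 0.42 in gcn4Δ, and 24 members were then called higher in gcn2Δ and 29 in gcn4Δ. Shares of all genes called on the TPM scale or under the covariate are not given here, so these counts are no result about the members.

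The genes that work with the ATG proteins were followed through 5 lists. Of 9 Cvt cargo and vacuolar hydrolase genes, all 9 rose in wild type, against 42% of all genes, with a median of 1.59. APE1, the main Cvt cargo, rose by 4.52 ± 0.12 and AMS1, alpha-mannosidase, by 2.42 ± 0.10. Of these 9 genes, 5 responded less in gcn2Δ, 3 in gcn4Δ and 4 in mbf1Δ, and none more, against 17.3%, 16.4% and 12.4% of all genes called lower. APE1 responded less by 1.05, 0.84 and 0.54 in gcn2Δ, gcn4Δ and mbf1Δ, and LAP3, an aminopeptidase carried as Cvt cargo, by 0.79, 0.83 and 0.55. The receptor of this cargo, ATG19, also responded less in all 3 mutants (-0.85, -1.04 and -0.55).

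Of 6 genes for PI3K complexes and sorting nexin partners, 5 rose in wild type and 1 was not called, against 42% of all genes called higher. VPS34, the lipid kinase, rose by 1.17 and SNX41 by 1.42, and VPS34 was the 1 gene that responded less in each mutant (-0.50, -0.43 and -0.43 in gcn2Δ, gcn4Δ and mbf1Δ). Of 17 genes for docking and fusion at the vacuole, 13 rose and 3 fell in wild type, against 42% and 41.2% of all genes. The rises were led by the SNARE VTI1 (1.71) and by VPS33 (1.22). Of these 17, 1 responded less in gcn2Δ, 3 in gcn4Δ and 1 in mbf1Δ, against 17.3%, 16.4% and 12.4% of all genes, and 1 responded more in mbf1Δ. They included VAC8 in gcn2Δ (-0.40) and mbf1Δ (-0.49), YPT7 (-0.65) and TRS85 (-0.47) in gcn4Δ, and YPT1 in mbf1Δ (0.34).

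The list of upstream kinases also holds subunits and regulators of the TORC1 complex and protein kinase A that are not kinases, such as LST8. Of its 16 genes, 5 were higher, 6 lower and 5 not called in wild type, against 42% of all genes higher and 41.2% lower. TPK2, a catalytic subunit of protein kinase A, rose by 1.61. TPK2 responded less in gcn2Δ (-1.06), gcn4Δ (-0.67) and mbf1Δ (-0.56), and TOR1 in gcn4Δ (-0.40), while LST8 responded more in mbf1Δ (0.54). Of 12 transcription regulators of ATG genes, 7 rose and 4 fell in wild type, against 42% and 41.2% of all genes. The rises were led by GAT1, a nitrogen-responsive GATA factor (1.96), and PHO23 (1.56). GAT1 responded less in gcn2Δ, gcn4Δ and mbf1Δ (-1.19, -0.72 and -1.12). GLN3, a second GATA factor, did so in gcn2Δ and gcn4Δ (-1.29 and -1.22). UME6, a repressor of ATG8, responded more in mbf1Δ (0.68), where 3 of the 12 regulators responded less. Only the 2 genes with the smallest adjusted p per list and comparison are named. A strain not given for a gene, as mbf1Δ for GLN3, can thus still differ from wild type.

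The authors' deposited tables of the interaction, made with DESeq2, called 16 members lower and 2 higher for gcn2Δ, 14 lower and none higher for gcn4Δ, and 8 lower and 2 higher for mbf1Δ. The shares of all genes that they called are not given here, so these counts alone are no result about the members. For ATG41 the authors' deposited table gives -1.77, -1.46 and -1.73 for gcn2Δ, gcn4Δ and mbf1Δ. The sign was the same as in the present fit for 37, 34 and 37 of the 37 members, from the same libraries.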

How the data were processed

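The authors quantified paired reads of 150 bases with Salmon 1.10.1 on build R64 after FastQC 0.11.9 and fastp, per the submitters' processing notes. The deposited files hold estimated counts and TPM per gene. The authors' deposited comparison tables, made with DESeq2 1.38.3 per the same notes, hold a mean normalized count (a score), log2 fold changes with errors, and raw and adjusted p-values, per the file headers. Whether the fold changes were shrunken, and the strand of the libraries, are not given in the sources used here. For 5623 genes the deposited length was the reference length plus 400 bases, so the models hold flanking sequence. Gene IDs were matched to the R64 table for 5909 of 5912 genes. No member had a second genomic match over at least 50% of its length at 90% identity or more (blastn 2.17.0).

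Estimated counts were rounded to whole numbers. The model was edgeR 4.0.16 (R 4.3.3): TMM scaling, filterByExpr with a minimum count of 10 (5824 genes kept), 1 coefficient for each of 8 groups over 24 libraries and 16 residual degrees of freedom. Each of 13 contrasts was tested two-sided by the quasi-likelihood test with Benjamini-Hochberg adjustment over all genes tested, and called at an adjusted p under 0.05. SE is the standard error implied by edgeR's statistic. The biological coefficient of variation was 8.49%. The deleted gene was left out of the background of its strain. Levels are shown as TMM-scaled FPKM instead of the TPM first planned, because they share the scale of the test; ranges of counts per library give the depth, and replicate spread covers the cultures sampled.

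Alternatives were DESeq2 1.42.0, no filter, limma 3.58.1 on log2(TPM + 1), a replicate block, rDNA-locus genes left out and each library left out in turn. The log2 rDNA-locus share as a covariate was added after the data were seen, when libraries with a low share within the MMS-treated gcn2Δ and mbf1Δ groups were found to hold more ATG8. The fit was tested on simulated data. The members, roles and related lists were chosen with earlier results of these data known. Members described in full were ATG1, ATG8, ATG9, ATG13 and ATG41 and, among called members, the 3 highest and lowest of each MMS response and each interaction with wild type, and the 2 highest and lowest of each other contrast. The other members are given by role. Of each related list, the 2 genes with the smallest adjusted p were named if called. An item that this rule picks is not reported here.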

Additional observations from a re-analysis of the deposited data

Results flagged for a closer look

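Several members responded to MMS differently in 2 strains by the test of the difference itself (edgeR interaction, log2 scale), and each was picked as the highest or lowest of its contrast or was always described. For gcn2Δ minus wild type these were ATG5 (0.56), ATG44 (0.46), ATG41 (-1.90), ATG39 (-1.20), ATG33 (-1.18) and ATG13 (-0.59). For gcn4Δ minus wild type they were ATG41 (-1.58), ATG34 (-1.18), ATG19 (-1.04), ATG9 (-0.37) and ATG13 (-0.87). For mbf1Δ minus wild type they were ATG5 (0.64), ATG9 (0.39), ATG41 (-1.79), ATG33 (-0.88), ATG40 (-0.78) and ATG13 (-0.36).

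Between mutants, ATG39 differed for mbf1Δ minus gcn2Δ (0.93). For mbf1Δ minus gcn4Δ, ATG12 (1.08), ATG8 (1.03), ATG22 (-0.57) and ATG32 (-0.42) differed. For gcn2Δ minus gcn4Δ, ATG8 (0.86), ATG9 (0.58), ATG33 (-0.59) and ATG22 (-0.55) differed. The comparisons with wild type share its 6 libraries, and the rDNA-locus share of gcn4Δ libraries overlaps that of no other strain, so strain and share cannot be told apart there.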

How the results depend on the processing

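Of 71 values of single members, DESeq2 kept direction and call for all 70 it could adjust, and dropping the filter, the replicate block and leaving out rDNA-locus genes did so for all 71. On the TPM scale 55 kept both, 9 lost the call and 7 turned: ATG27 in wild type, gcn2Δ, gcn4Δ and mbf1Δ (0.26, 0.19, 0.31 and 0.18), ATG44 in gcn2Δ and mbf1Δ (0.18 and 0.14) and ATG12 in gcn4Δ (0.023). The cause was not tested. With the rDNA-locus covariate 62 kept both, and ATG1 in gcn2Δ minus wild type (0.037) and ATG34 (-0.22) and ATG41 (0.19) in untreated gcn4Δ turned.

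The number of called members moved by over 1.5 times on the TPM scale for gcn4Δ minus wild type (7), mbf1Δ minus wild type (6), untreated gcn2Δ (25) and gcn4Δ (29), mbf1Δ minus gcn4Δ (6) and gcn2Δ minus gcn4Δ (5). With the covariate it moved for gcn4Δ minus wild type (25), untreated gcn4Δ (10), mbf1Δ minus gcn2Δ (3), mbf1Δ minus gcn4Δ (29) and gcn2Δ minus gcn4Δ (25). Shares of all genes called under these refits are not given here. DESeq2 called 1 member in untreated gcn2Δ and 0 in mbf1Δ minus gcn2Δ, and the replicate block 2 in the second.

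Leaving out each library gave 32 to 33 calls for the wild type response, 32 to 34 for gcn2Δ and gcn4Δ, 34 to 36 for mbf1Δ, 16 to 19, 13 to 15 and 9 to 12 for gcn2Δ, gcn4Δ and mbf1Δ minus wild type, 0 to 6 for untreated gcn2Δ, 2 to 5 for untreated gcn4Δ, 0 to 0 for untreated mbf1Δ, 0 to 4 for mbf1Δ minus gcn2Δ, 12 to 22 for mbf1Δ minus gcn4Δ and 8 to 13 for gcn2Δ minus gcn4Δ. Of 1704 such values of single members, 1680 kept direction and call, 18 lost the call, 1 gained it and 5 turned. All 5 were of ATG1, in the uncalled differences from wild type of gcn2Δ (-0.17 to 0.016) and mbf1Δ (-0.039 to 0.19). Of 48 pairs of libraries with the same replicate number, 10 had a correlation of deviations over 0.1 (range -0.305 to 0.538). MMS-treated gcn2Δ and mbf1Δ libraries had 0.527 in replicate 1, -0.195 in replicate 2 and 0.538 in replicate 3. Correlations of pairs with unlike numbers are not given here, so whether replicate numbers pair libraries was not settled.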
